A study of Mus musculus with 8 samples.

Results

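The matrix metalloproteinase and Timp gene family was followed in the aorta of mice during and after an infusion of angiotensin II (AngII), the effector peptide of the renin-angiotensin system. From this family 10 members were taken by name, out of 35896 genes in the count table. They are Mmp2, Mmp3, Mmp9, Mmp12, Mmp13 and Mmp14 together with the inhibitors Timp1, Timp2, Timp3 and Timp4. RNA was sequenced from 8 libraries, each of which pooled aortic tissue of 2 male C57BL6 mice. The CTRL group comprised untreated littermates. The study describes control mice as matched in age and sacrificed at every time point, and the labels do not give the time for either CTRL library. The AngII group received 2.8 mg/kg/d of AngII from osmotic minipumps for 2 weeks, starting at 11 weeks of age, and was sacrificed at the end of the infusion. The AngII+2W and AngII+3W groups received the same infusion and were sacrificed 2 and 3 weeks after it had ended. Each group had 2 libraries, no group carried a transgene or a deletion, and all mice were on the same genetic background.

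Matrix metalloproteinases are zinc-dependent endopeptidases that cleave collagens, elastin, proteoglycans and many other proteins of the extracellular matrix. They are made as inactive proenzymes, and the Timps are small secreted proteins that bind their active site. Mmp14 is anchored in the cell membrane and, together with Timp2, forms the complex in which pro-Mmp2 is activated on the cell surface, so that Timp2 takes part in activation as well as inhibition. In arteries these enzymes are known for their part in wall remodeling and in aneurysms. The RNA counts inform on transcript levels only, and not on proenzyme, active enzyme or inhibition.

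The members lie at several places in the mouse genome (build GRCm38). Mmp13 (chr9:7272514-7283331), Mmp12 (chr9:7344381-7369499) and Mmp3 (chr9:7445822-7455975) are neighbours in a cluster on chromosome 9, all on the forward strand. Mmp2 (chr8:92827291-92853420), Mmp9 (chr2:164940780-164955850) and Mmp14 (chr14:54431612-54445364) lie elsewhere, also on the forward strand. Timp1 (chrX:20870166-20874735, forward strand), Timp3 (chr10:86300372-86349506, forward strand) and Timp4 (chr6:115241892-115252205, reverse strand) each lie inside a synapsin gene on the opposite strand, Syn1, Syn3 and Syn2 respectively. Timp2 (chr11:118301069-118355740) is on the reverse strand. All are annotated as protein-coding.

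The sequences directly before the start sites of 5 members are shown. Of these genes 3 belong to the chromosome 9 cluster, while the others, Mmp14 and Timp1, changed in the comparisons given further on. Promoter sequences were taken from RefSeq (GRCm38.p6), in which 8 of the 10 members were matched and Mmp2 and Mmp9 were not. Each window holds the 100 bases before the start site, 5′ to 3′ on the forward strand, and no base of it lies in an annotated exon. The windows are chr9:7445722-7445821 for Mmp3, chr9:7347274-7347373 for the second of the start sites of Mmp12, chr9:7272414-7272513 for Mmp13, chr14:54431498-54431597 for Mmp14 and chrX:20870066-20870165 for Timp1. Capitals mark the letters TGANTCA, the core recognized by the AP-1 family of transcription factors, which was searched on both strands and reads the same way on either.
Mmp3: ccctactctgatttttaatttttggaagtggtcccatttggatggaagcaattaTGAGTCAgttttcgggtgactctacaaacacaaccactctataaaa
Mmp12: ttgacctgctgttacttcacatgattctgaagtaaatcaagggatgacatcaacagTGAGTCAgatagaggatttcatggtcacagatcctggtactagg
Mmp13: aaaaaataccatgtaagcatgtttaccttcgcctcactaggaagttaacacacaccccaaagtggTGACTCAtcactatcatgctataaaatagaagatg
Mmp14: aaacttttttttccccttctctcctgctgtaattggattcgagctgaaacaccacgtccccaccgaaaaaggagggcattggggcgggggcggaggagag
Timp1: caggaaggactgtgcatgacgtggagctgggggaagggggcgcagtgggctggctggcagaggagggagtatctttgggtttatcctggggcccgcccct
The motif lay from 46 to 40 bases before the start of Mmp3, from 44 to 38 bases before this start of Mmp12, and from 35 to 29 bases before the start of Mmp13. The windows of Mmp14 and Timp1 and that of the first start site of Mmp12 (chr9:7344297-7344396, not shown) did not hold these letters. Over the whole RefSeq window, from 250 bases before to 50 bases after a start, it was found in 3 of the 8 matched members, against 7.81% of 32851 promoters and 8.97% of 27025 genes. The TATA box, searched as the letters TATAAA on both strands, began 7 bases before the start of Mmp3 and 16 bases before that of Mmp13, and just after this start of Mmp12. It occurred in 13.6% of all promoters. These matches describe the letters only.

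The depth was even. Counts summed to between 18130441 and 21498200 per library, and 3 counts, taken as the floor of detection, corresponded to between 0.140 and 0.162 CPM (counts per 1000000, on library sizes normalized by the TMM method). All 10 members were among the 17182 genes with enough counts to be tested. The 2 libraries of a group differed by more than counting noise, with a chi-square per degree of freedom of 13.0 in AngII+2W, 35.1 in AngII, 49.1 in CTRL and 91.0 in AngII+3W, and were counted as separate samples. Libraries also differed in the surrounding tissue they held. The 6 cardiac muscle markers summed to between 6.34 and 5261 CPM, and replicate 1 of AngII+3W had 2359 CPM of 6 skeletal muscle markers against 10.05 in replicate 2 and at most 73.8 in any other library. The tissue label was borne out by smooth muscle markers, 6 genes that summed to between 1650 and 9003 CPM. Markers of fat were also abundant. The 5 adipocyte markers summed to between 4223 and 6524 CPM and the 4 brown fat markers to between 1254 and 2632 CPM. In all groups of infused mice the adipocyte sum was above the smooth muscle sum, and in CTRL it was below. The adipocyte sum of each infused group overlapped that of CTRL (4576 and 5793 CPM). The smooth muscle sum did not overlap, with 7007 and 9003 CPM in CTRL and at most 3694 CPM in the infused groups.

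Of the 10 members, the inhibitors Timp3 and Timp2 had the highest levels in CTRL aortas. Compared per kilobase of the longest coding transcript, the level of Timp3, the inhibitor that binds to the extracellular matrix, was 150.3 ± 29.3 CPM per kilobase (mean ± SD, n = 2). Timp2 followed at 77.2 ± 25.2, then Mmp2, the gelatinase of mesenchymal cells, at 21.4 ± 5.62, and Mmp14 at 11.6 ± 0.0259. Timp4 had 8.31 ± 1.17. Mmp3, the stromelysin that cleaves proteoglycans and activates other proenzymes, had 6.43 ± 4.88, so that the order of these neighbours did not exceed their spread. The order between genes also depends on the transcript length used. The coding transcripts of Timp4, for example, have 5496 and 945 bases, and the shorter would place it higher. Timp1 and Mmp9, the gelatinase of leukocytes, had 2.87 ± 0.148 and 2.87 ± 0.775, Mmp12, the macrophage elastase, had 2.22 ± 0.665, and these levels also overlapped. Mmp13, a collagenase, was lowest at 0.0981 ± 0.0356 CPM per kilobase. In AngII aortas the order of the means was different at the top, with Mmp2 at 127.8 ± 50.2 and Timp2 at 120.0 ± 27.7 CPM per kilobase. Timp3 had 101.5 ± 18.8, and these 3 levels did not differ beyond their spread. The changed order was that of replicate 2 (163, 140 and 88.3), while replicate 1 (92.2, 100 and 115) kept the order of CTRL.

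**Figure D1:**
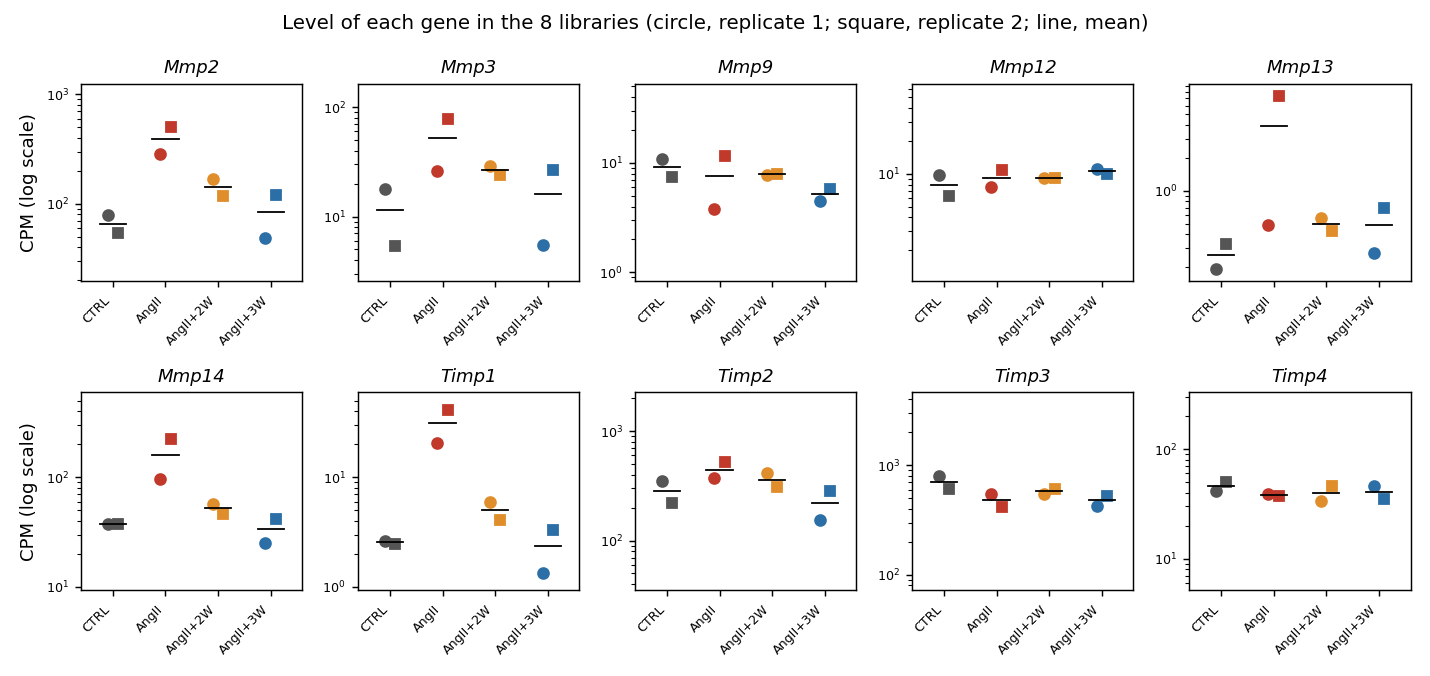
Level of each of the 10 genes in CPM (log axis) in the 8 libraries, by group. Circles are replicate 1, squares replicate 2 and lines the mean of the 2 libraries. Timp1, Mmp2 and Mmp14 lie highest in both AngII libraries, Mmp13 is high in 1 AngII library, and Mmp12 and Timp4 stay within a narrow band.

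The first comparison asked which members differed from CTRL at the end of the AngII infusion. Timp1, Mmp2 and Mmp14 rose, and no member fell. These were 3 of 10 members with an FDR below 0.05 (by the quasi-likelihood test of edgeR, with p-values adjusted over all genes after Benjamini and Hochberg). In the same comparison 5.10% of the 17182 genes passed, 2.90% higher and 2.20% lower. The median log2 fold change of the members was 1.36, with 7 above 0, beside a median of -0.01 over all genes.

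Timp1, the inducible inhibitor of the family, had 2.63 and 2.45 CPM in the CTRL libraries and 20.8 and 41.4 CPM in the AngII libraries. Both AngII libraries lay far above both CTRL libraries. The fitted difference was 3.61 on the log2 scale (SE 0.47, FDR = 0.0116 by edgeR), a 12.2-fold rise. Mmp2 had 78.2 and 53.8 CPM in CTRL and 284 and 503 CPM in AngII, again without overlap. It rose by 2.57 on the log2 scale (SE 0.47, FDR = 0.0266 by edgeR), or 5.96-fold. Mmp14, its membrane-bound activator, had 37.5 and 37.6 CPM in CTRL and 96.4 and 222 CPM in AngII. The rise was 2.09 on the log2 scale (SE 0.39, FDR = 0.0300 by edgeR), or 4.24-fold. In all 3 genes replicate 2 of AngII was the higher library, by 1.99-fold for Timp1, 1.77-fold for Mmp2 and 2.31-fold for Mmp14. Of all genes, 3.75% were at least 2-fold higher in replicate 2 than in replicate 1 of this group, and of these 3 genes Mmp14 was. Of the other members Mmp13 (15.0-fold), Mmp3 (3.02-fold) and Mmp9 (2.99-fold) were as well, and the rest were not.

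The calls depended on single libraries. Without replicate 2 of AngII none of the 3 passed, with log2 fold changes of 3.03 for Timp1 (FDR = 0.0842), 2.10 for Mmp2 (FDR = 0.167) and 1.36 for Mmp14 (FDR = 0.145 by edgeR), and no gene of the whole table passed either. Without replicate 1 of CTRL (Timp1 FDR = 0.0977) or replicate 2 of CTRL (Timp1 FDR = 0.0703) again no member passed, and without either of the AngII+2W libraries only Timp1 did (FDR = 0.0381 and 0.0376 by edgeR). Without replicate 1 of AngII, Mmp2 was at FDR = 0.0551, while Mmp13 passed at FDR = 0.0299. The direction was upward for Timp1, Mmp2 and Mmp14 in all 8 fits that left out a library.

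The remaining metalloproteinases did not pass the quasi-likelihood test. Mmp13 had 4 and 7 counts in CTRL and 9 and 154 counts in AngII, which correspond to 0.195, 0.329, 0.486 and 7.30 CPM. The 2 AngII libraries differed 15.0-fold from each other, and the difference from CTRL was 3.87 on the log2 scale (SE 1.16, FDR = 0.107 by edgeR), falling to 0.87 without AngII replicate 2. Mmp13 passed with DESeq2 (FDR = 0.00447) and with the likelihood ratio test of edgeR (FDR = 0.0119). Mmp3 had 17.8 and 5.36 CPM in CTRL and 25.9 and 78.1 CPM in AngII. The groups did not overlap, but the 2 libraries differed 3.32-fold in CTRL and 3.02-fold in AngII, and the log2 fold change was 2.17 (SE 0.83, FDR = 0.193 by edgeR). Mmp9 had 10.9 and 7.39 CPM in CTRL against 3.83 and 11.5 in AngII, which overlapped (log2 fold change -0.25, FDR = 0.818). Mmp12, whose gene lies between Mmp13 and Mmp3, had 9.70 and 6.30 CPM in CTRL against 7.56 and 10.9 in AngII, which also overlapped (log2 fold change 0.21, FDR = 0.718).

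The other inhibitors did not pass either. Timp2 had 352 and 220 CPM in CTRL and 372 and 518 CPM in AngII (log2 fold change 0.64, SE 0.35, FDR = 0.366). Timp3 had 808 and 612 CPM in CTRL and 542 and 417 CPM in AngII, so that both AngII libraries were below both CTRL libraries, with a log2 fold change of -0.57 (SE 0.21, FDR = 0.181 by edgeR). Timp4 had 41.1 and 50.2 CPM against 38.8 and 37.1 CPM (log2 fold change -0.27, FDR = 0.502). In terms of overlap, 6 members had both AngII libraries above both CTRL libraries, 2 had them below and 2 overlapped, where 24.4% of all genes were above and 24.9% below in this way.

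**Figure D2:**
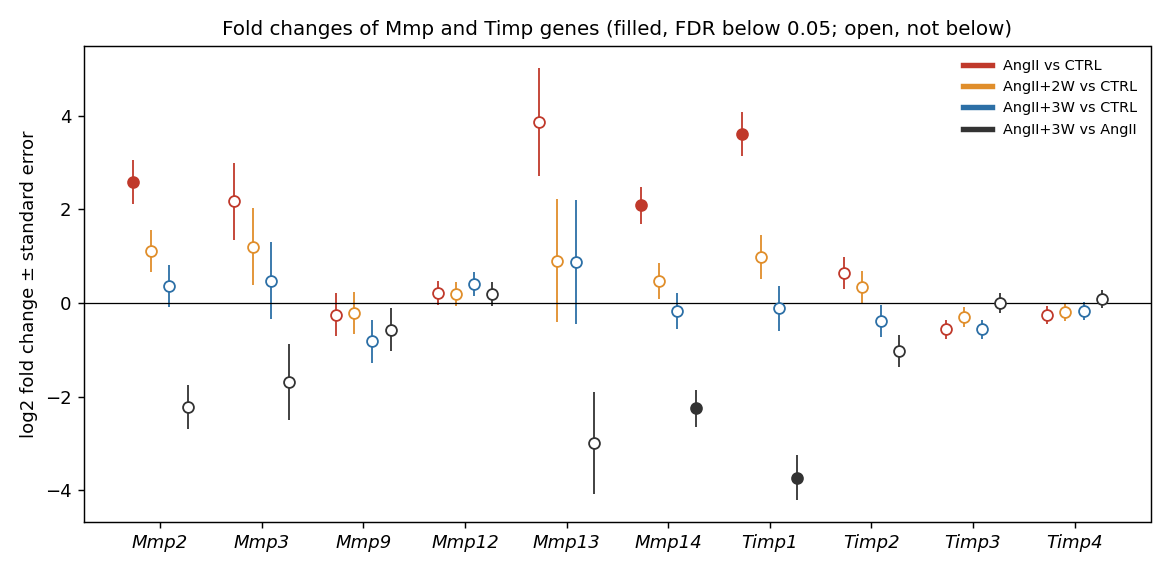
Fitted log2 fold change of each gene (vertical axis, bars are the standard error) in the comparisons of AngII, AngII+2W and AngII+3W with CTRL and of AngII+3W with AngII. Filled points have an FDR below 0.05. Timp1, Mmp2 and Mmp14 are filled for AngII, Timp1 and Mmp14 are filled below 0 for AngII+3W against AngII, and no point is filled for AngII+2W or AngII+3W against CTRL.

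The second question was whether these levels persisted in the groups sacrificed after the infusion. Against CTRL, none of the 10 members passed the test in AngII+2W or in AngII+3W. In AngII+2W the test passed 0.00% of all genes (DESeq2 passed 373 genes there, none of them a member, and 1838 genes, 10.7%, had an unadjusted p below 0.05 in edgeR), so that the members did not stand apart from the other genes in this. In AngII+3W it passed 0.285% of all genes. The members' median log2 fold change was 0.40 in AngII+2W, with 7 above 0, and -0.14 in AngII+3W, with 4 above 0, beside medians of 0.00 and 0.03 over all genes.

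Mmp2 had 169 and 118 CPM in AngII+2W, which lay between the CTRL and the AngII libraries without overlapping either. Its log2 fold change against CTRL was 1.12 (SE 0.45, FDR = 0.435 by edgeR). In AngII+3W the 2 libraries had 48.8 and 120 CPM and spanned the CTRL range (log2 fold change 0.35, FDR = 0.791). Timp1 behaved likewise, with 5.93 and 4.08 CPM in AngII+2W, above both CTRL libraries (log2 fold change 0.98, SE 0.47, FDR = 0.513), and 1.34 and 3.33 CPM in AngII+3W, on either side of CTRL (log2 fold change -0.12, FDR = 0.944). Mmp14 had 57.6 and 46.4 CPM in AngII+2W (log2 fold change 0.47, FDR = 0.738) and 25.05 and 41.9 CPM in AngII+3W (log2 fold change -0.17, FDR = 0.899). Without replicate 1 of AngII+3W the estimates for Timp1 and Mmp14 against CTRL changed sign, and without replicate 2 that for Mmp2 did.

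Mmp3 had 29.2 and 24.1 CPM in AngII+2W and 5.54 and 26.6 CPM in AngII+3W (log2 fold changes against CTRL 1.204 and 0.48, FDR = 0.664 and 0.856). Mmp13 remained low, with 12 and 8 counts in AngII+2W and 5 and 13 counts in AngII+3W (0.90 and 0.86, FDR = 0.870 and 0.835). Mmp9 had 7.75 and 7.95 CPM in AngII+2W and 4.52 and 5.80 CPM in AngII+3W, the latter below both CTRL libraries (-0.22 and -0.82, FDR = 0.913 and 0.514). Mmp12 had 9.20 and 9.13 CPM and then 11.1 and 9.99 CPM, the latter above both CTRL libraries (0.20 and 0.40, FDR = 0.854 and 0.569).

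Timp3 was the member whose AngII+3W level stayed closest to its AngII level. Its libraries had 552 and 604 CPM in AngII+2W and 429 and 529 CPM in AngII+3W, all below the 612 CPM of the lower CTRL library. The log2 fold change against CTRL was -0.30 (FDR = 0.683) in AngII+2W and -0.57 (SE 0.21, FDR = 0.322 by edgeR) in AngII+3W, close to the -0.57 at the end of the infusion, and none of these passed the test. The comparisons share the same CTRL libraries. Timp2 had 415 and 307 CPM in AngII+2W and 154 and 283 CPM in AngII+3W (0.34 and -0.39, FDR = 0.800 and 0.684). Timp4 had 33.8 and 45.9 CPM and then 45.6 and 35.4 CPM, overlapping CTRL each time (-0.20 and -0.17, FDR = 0.783 and 0.754). Over the family, 5 members lay above and 1 below CTRL without overlap in AngII+2W, where 21.7% and 22.2% of all genes did, and 1 above and 2 below in AngII+3W, where 19.8% and 18.3% did.

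The groups after the infusion were then compared with AngII itself. Their mice were older at sacrifice, so that age and time after the infusion cannot be told apart. Between AngII and AngII+3W, Timp1 fell by 3.73 on the log2 scale (SE 0.48, FDR = 0.0221 by edgeR) and Mmp14 fell by 2.25 (SE 0.40, FDR = 0.0436 by edgeR). These 2 of 10 members stand beside 1.61% of all genes, 1.32% in the lower direction. With only the 2 groups compared neither passed in edgeR (FDR = 0.129 for Timp1 and 0.184 for Mmp14). With library totals Mmp14 did not pass (FDR = 0.0562 by edgeR). Mmp2 had a difference of -2.22 (SE 0.46, FDR = 0.0646 by edgeR), and DESeq2 gave -2.23 with an FDR of 0.00439. Timp2 had -1.03 (SE 0.35, FDR = 0.186), Mmp3 -1.69 (SE 0.81, FDR = 0.328) and Mmp13 -3.00 (SE 1.09, FDR = 0.210 by edgeR). DESeq2 passed Timp2 (FDR = 0.0209) and Mmp13 (FDR = 0.0487) here as well. Mmp9 (-0.57, FDR = 0.551), Mmp12 (0.19, FDR = 0.738), Timp3 (-0.0016, FDR = 0.998) and Timp4 (0.09, FDR = 0.840) had smaller differences. Without overlap, 4 members were lower in AngII+3W than in AngII and none was higher, where 24.2% and 24.8% of all genes were.

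Between AngII and AngII+2W no member passed, where 0.163% of all genes did, 0.0233% higher and 0.140% lower. Without overlap, 1 member was higher in AngII+2W than in AngII and 3 were lower, where 26.8% and 27.5% of all genes were. The members furthest from 0 were Mmp13 at -2.96 (SE 1.08, FDR = 0.250), Timp1 at -2.63 (SE 0.45, FDR = 0.0655), Mmp14 at -1.62 (SE 0.39, FDR = 0.116) and Mmp2 at -1.46 (SE 0.45, FDR = 0.189 by edgeR). For Timp1 the result turned on the test, since it passed with DESeq2 (FDR = 2.89e-07), with edgeR's likelihood ratio test (FDR = 1.90e-05), and in edgeR when every gene with at least 1 count was kept (FDR = 0.0258) or only the 2 groups were fitted (FDR = 0.0196). Mmp2 passed with the likelihood ratio test (FDR = 0.0435) and with only the 2 groups fitted (FDR = 0.0435). Mmp14 passed with DESeq2 (FDR = 0.000366) and with the likelihood ratio test (FDR = 0.00421). Mmp3 had -0.97 (FDR = 0.644), Timp2 -0.30 (FDR = 0.759), Timp3 0.27 (FDR = 0.622), Timp4 0.07 (FDR = 0.916), Mmp9 0.03 (FDR = 0.987) and Mmp12 -0.01 (FDR = 0.991). The calls of Timp1 and Mmp14 in AngII+3W against AngII also depended on single libraries. Neither passed in edgeR without replicate 2 of AngII, replicate 1 of AngII+3W, replicate 2 of CTRL or either AngII+2W library. Without replicate 1 of CTRL, Timp1 passed and Mmp14 did not. The estimates stayed below 0 in all 8 fits, from -4.58 to -3.15 for Timp1 and from -2.76 to -1.53 for Mmp14. Without replicate 2 of CTRL or an AngII+2W library, which are not in this comparison, the estimates hardly moved. They were -3.73 to -3.75 for Timp1 and -2.25 to -2.28 for Mmp14.

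The make-up of the inhibitor pool was described from the levels per kilobase. In CTRL libraries Timp3 made up 61.9% and 64.5% of the summed Timp level, Timp2 34.4% and 29.5%, and Timp1 1.08% and 1.38%. In AngII libraries Timp1 made up 9.58% and 16.7%, while Timp3 made up 46.7% and 31.3% and Timp2 40.8% and 49.6%. The share of Timp1 was 2.78% and 2.07% for AngII+2W and 1.07% and 1.90% for AngII+3W, so that no other library came near the AngII libraries. The share of Timp3 was 48.4% and 57.2% for AngII+2W and 63.9% and 56.5% for AngII+3W. The summed Timp level was 277 and 201 CPM per kilobase for CTRL and 246 and 282 for AngII. It was 242 and 224 for AngII+2W and 142 and 199 for AngII+3W. AngII and AngII+2W overlapped CTRL in this sum, whereas both AngII+3W libraries lay below those of every other group. The sum was not tested.

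The summed level of the 6 metalloproteinases was 53.1 and 36.3 CPM per kilobase for CTRL, 140 and 285 for AngII, 94.0 and 71.1 for AngII+2W and 31.2 and 71.5 for AngII+3W. Mmp2 alone made up between 47.9% and 66.0% of this sum in every library, and Mmp14 between 18.1% and 32.0%. Other Mmp genes were not part of this sum, among them Mmp17 with a mean of 41.8 CPM in CTRL. The transcript ratio of Mmp2 to Timp2, per kilobase, was 0.268 and 0.294 for CTRL, 0.919 and 1.17 for AngII, 0.490 and 0.461 for AngII+2W and 0.382 and 0.511 for AngII+3W. All 6 libraries of infused mice were above both CTRL libraries in this ratio, with AngII the highest. The ratio of Mmp14 to Timp2 was 0.122 and 0.196 for CTRL, 0.296 and 0.492 for AngII, 0.159 and 0.173 for AngII+2W and 0.187 and 0.170 for AngII+3W, so that here the libraries after the infusion lay within the CTRL range. The ratio of Timp1 to Timp3 was 0.0174 and 0.0214 for CTRL, 0.205 and 0.531 for AngII, 0.0574 and 0.0361 for AngII+2W and 0.0168 and 0.0337 for AngII+3W. These ratios were chosen after values of the members had been seen and are given without a test.

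**Figure D3:**
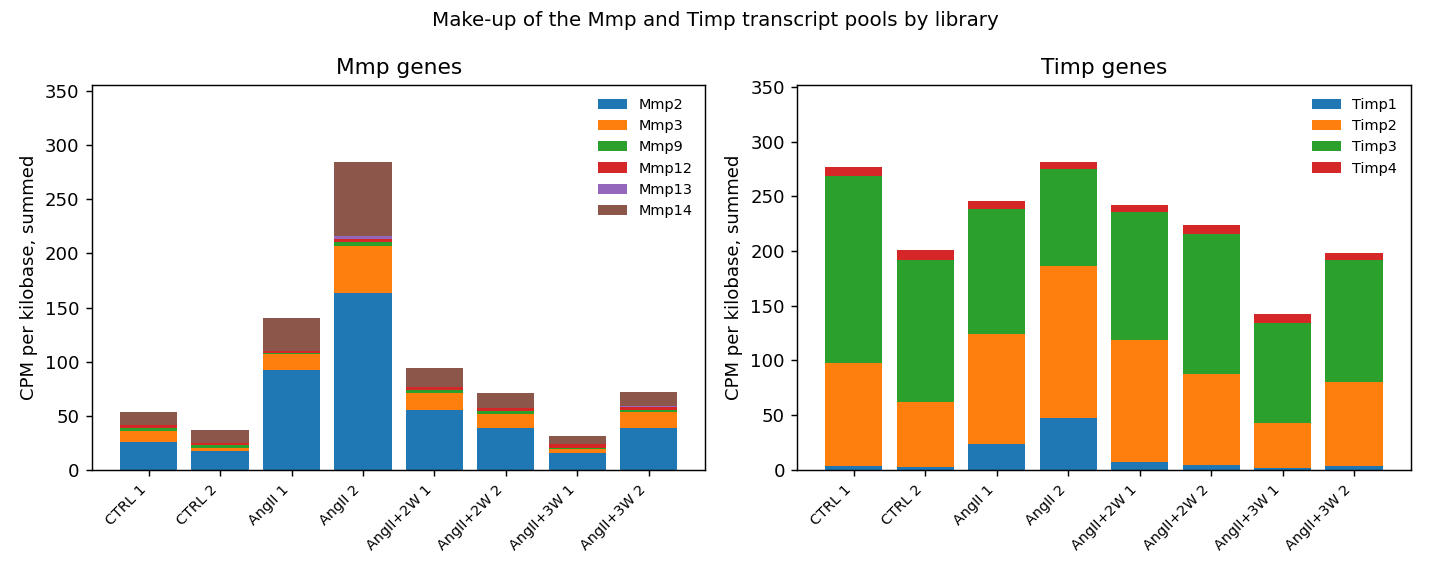
Stacked levels of the Mmp genes among the members (left) and of the Timp genes (right) in each library, in CPM per kilobase of the longest coding transcript. Other Mmp genes are not included. The Mmp sum is largest in the AngII libraries (140 and 285) and is mostly Mmp2, while the Timp sum ranges from 142 to 282 and gains a visible Timp1 layer in AngII only.

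Several members varied together over the 8 libraries, which share the contrast between groups and are therefore no independent points. The correlation of log2 CPM was 0.98 between Mmp14 and Timp1, 0.97 between Mmp2 and Timp1, and 0.96 between Mmp2 and Mmp14. Mmp3 was most like Mmp2 (0.91) and Timp2 (0.91). Timp3 and Timp4 had coefficients of -0.37 and -0.65 with Mmp2, and Mmp9 (0.18) and Mmp12 (0.18) varied with little relation to it. Among all genes tested, those most like Mmp2 were C1qtnf1 (0.995), Col1a1 (0.994), a chain of type I collagen, and Fndc1 (0.990). Those most like Timp1 were Ckap2l (0.998), a mitotic spindle gene, Adamts4 (0.995), an aggrecan-cleaving protease, and Col3a1 (0.992), the chain of type III collagen. Those most like Mmp14 were Nrros (0.995), Pdia5 (0.992) and Fxyd5 (0.991).

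For the other members the most similar genes were Gbgt1, Fbxl7 and Atp7a for Mmp3 (0.985 to 0.975), Ereg, Ift27 and Plaur for Mmp9 (0.951 to 0.927), and Ebpl, Morc3 and Gm7701 for Mmp12 (0.967 to 0.957). For Mmp13, which was high in 1 library, they were Trem2, Vegfc and Wrap73 (0.976 to 0.959). Among the genes most like Timp2 were Entpd2 (0.985) and Ikbip (0.981). Timp3 was most like 4930523C07Rik, Greb1l and Rnf19a (0.954 to 0.950), and among the genes most like Timp4 were Idh2 (0.935) and Lrrc47 (0.934).

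The fibroblast and macrophage marker sums were highest in AngII, as Timp1, Mmp2 and Mmp14 were, while the smooth muscle sum was highest in CTRL. In bulk tissue a change in the number of cells of a type and a change in RNA per cell cannot be told apart. The 7 fibroblast markers summed to between 2373 and 3901 CPM for CTRL, 12888 and 20952 for AngII, 4687 and 6888 for AngII+2W and 1814 and 4978 for AngII+3W, and 2 of them, Col1a1 and Lum, rose in AngII. As for Timp1, Mmp2 and Mmp14, replicate 2 was the higher library in AngII and in AngII+3W. Most of the fibroblast sum was type I collagen, as Col1a1 and Col1a2 had means of 8908 and 6451 CPM in AngII. Pdgfra (log2 fold change 0.79, FDR = 0.298), Pi16 (0.79, FDR = 0.420) and Dcn (1.27, FDR = 0.124 by edgeR) did not pass there. Neither did Dpt (1.64, FDR = 0.116) or Col1a2 (2.18, FDR = 0.0600 by edgeR). The 8 macrophage markers summed to between 280.0 and 391 CPM for CTRL, 726 and 1149 for AngII, 471 and 477 for AngII+2W and 243 and 401 for AngII+3W. Of these, Cd68, Adgre1 and Mrc1 rose in AngII. Lyz2 (1.56, FDR = 0.0576), Csf1r (1.39, FDR = 0.0644) and C1qa (1.43, FDR = 0.0671 by edgeR) did not pass there, nor did Cd163 (0.83, FDR = 0.176) or Cd14 (0.39, FDR = 0.382). The 6 smooth muscle markers summed to between 7007 and 9003 CPM in CTRL and 1650 and 2071 in AngII, where 4 of them fell, to between 3327 and 3694 in AngII+2W, and to between 1793 and 3151 in AngII+3W, where 3 fell against CTRL. No marker of these lists was at 0 in all libraries. Their part in the changes of the members was not tested.

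**Figure D4:**
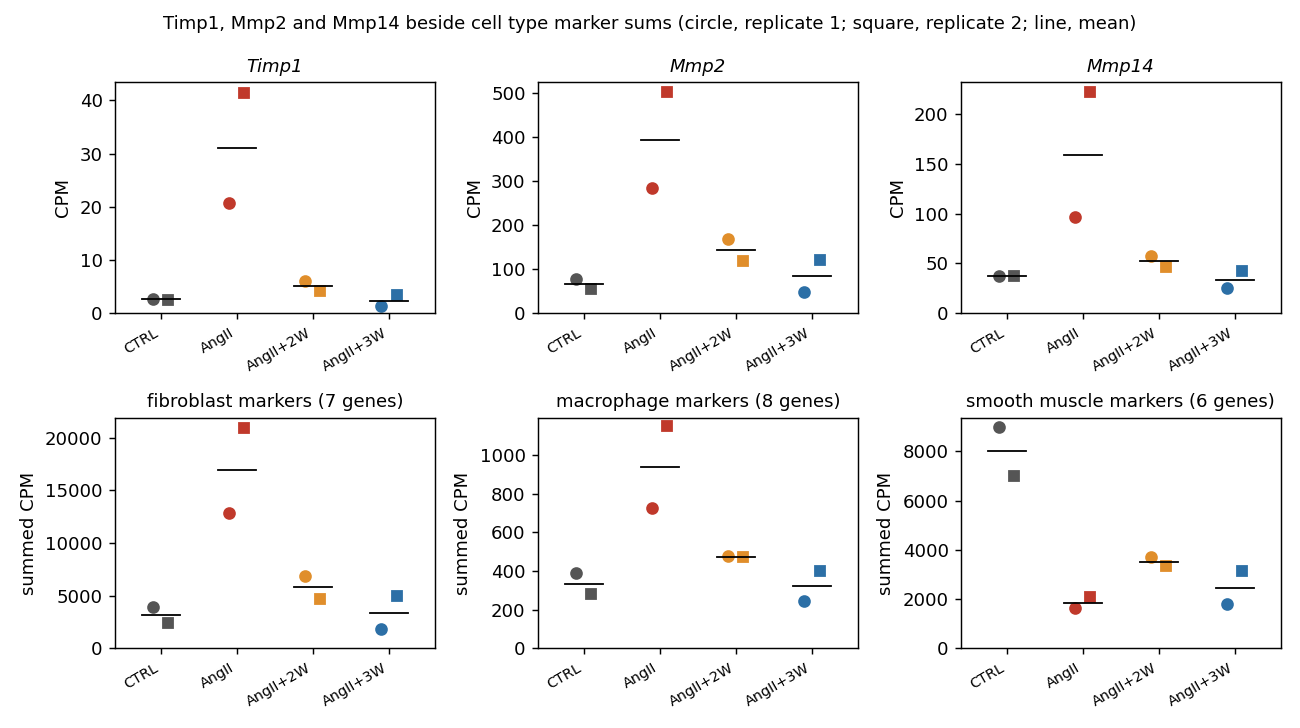
Timp1, Mmp2 and Mmp14 (top, CPM) beside the summed CPM of fibroblast, macrophage and smooth muscle markers (bottom) in each library. Circles are replicate 1, squares replicate 2 and lines the group mean. The fibroblast and macrophage sums are highest in both AngII libraries, as the 3 genes are, whereas the smooth muscle sum is highest in CTRL. The fibroblast sum is mostly Col1a1 and Col1a2.

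The 6 neutrophil markers, of which 3 had enough counts to be tested, summed to between 3.70 and 5.13 CPM for CTRL, 3.08 and 5.12 for AngII, 7.42 and 10.4 for AngII+2W and 2.79 and 3.06 for AngII+3W, and none of the 3 passed in any comparison. Endothelial markers (6 genes) ranged from 890 to 1207 CPM and lymphocyte markers (7 genes) from 11.3 to 16.8 CPM over all libraries, again without a call. Of 4 brown fat markers 1 rose in AngII, of 5 Schwann cell markers 1 fell in AngII and 3 were higher in AngII+3W than in AngII, and none of the 5 adipocyte, 6 cardiac, 6 skeletal muscle and 4 tested chondrocyte markers passed in any comparison.

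Of 17 other Mmp genes 9 had enough counts to be tested, and in AngII 1 of them rose and 1 fell. Mmp19, a broad-spectrum matrix protease, went from 30.7 ± 3.00 to 67.0 ± 1.00 CPM (mean ± SD, n = 2, log2 fold change 1.12, FDR = 0.00927 by edgeR) and was lower in AngII+3W than in AngII (-0.97, FDR = 0.0259). Mmp17, which is anchored to the membrane by a lipid, went from 41.8 ± 4.59 to 16.3 ± 3.71 CPM (-1.36, FDR = 0.0348) and had 12.5 ± 4.86 CPM in AngII+3W (-1.74 against CTRL, FDR = 0.0603 by edgeR). Among those without a call, Mmp15 had 31.9 ± 6.76 CPM in CTRL and 32.5 ± 2.03 in AngII, and Mmp23, Mmp28 and Mmp11 had log2 fold changes of 0.26, 0.33 and 0.22. Mmp1b and Mmp7 were at 0 in all 8 libraries.

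Of 9 Adam proteases, membrane-anchored shedding enzymes and their relatives, 1 rose. Adam12 went from 52.6 ± 8.14 to 152 ± 10.54 CPM (mean ± SD, n = 2, log2 fold change 1.53, FDR = 0.00530 by edgeR) and fell in both later groups against AngII, by 1.45 in AngII+2W (FDR = 0.0290) and by 1.09 in AngII+3W (FDR = 0.0223). Adam9, Adam10, Adam15 and Adam17 did not pass, with log2 fold changes in AngII between 0.03 and 0.56. Of 19 Adamts proteases, secreted enzymes that cleave proteoglycans and procollagens, 4 rose in AngII and none fell. Adamts4 went from 3.29 ± 0.521 to 16.7 ± 4.46 CPM (2.35, FDR = 0.0124), Adamts12 from 42.5 ± 0.977 to 120 ± 15.9 CPM (1.496, FDR = 0.00530), Adamts17 from 2.25 ± 0.0558 to 7.82 ± 1.74 CPM (1.80, FDR = 0.0150) and Adamts7 from 4.14 ± 0.337 to 10.8 ± 1.96 CPM (1.39, FDR = 0.0245 by edgeR). Adamts4, Adamts12 and Adamts17 were lower in AngII+3W than in AngII. Adamts1, at 222 ± 125 CPM in CTRL and 74.5 ± 5.98 in AngII, missed the threshold (-1.57, FDR = 0.0536), as did Adamts2 (1.47, FDR = 0.0834), Adamts9 and Adamts10.

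The plasminogen system, whose protease plasmin activates several pro-Mmps, had no call in 6 tested genes of 7. Its plasminogen activators Plat and Plau had log2 fold changes of 0.61 (FDR = 0.308) and 0.63 (FDR = 0.0945) in AngII, and the inhibitor Serpine2 had -0.75 (FDR = 0.0529 by edgeR). Of 8 activators and other inhibitors 1 rose, Tfpi2, a serine protease inhibitor, from 0.266 ± 0.244 to 1.88 ± 0.291 CPM (2.80, FDR = 0.0388). The CTRL level of Tfpi2 was close to the floor of detection, with an SD almost as large as the mean. Furin, the convertase that activates pro-Mmp14, had 141 ± 16.4 CPM in CTRL and 145 ± 0.566 in AngII (0.04, FDR = 0.915). Bsg, Lrp1 and Cst3 did not pass either (0.27, 0.53 and -0.22). Of 8 cathepsins, lysosomal proteases that include collagenases and elastases, 3 rose in AngII. Ctsk, a collagenase, went from 7.44 ± 1.61 to 54.0 ± 14.5 CPM (2.86, FDR = 0.00778), Ctss, an elastase, from 15.9 ± 2.29 to 64.1 ± 34.5 CPM (2.01, FDR = 0.0273) and Ctsc from 40.6 ± 10.1 to 116 ± 19.5 CPM (1.51, FDR = 0.0175 by edgeR). Ctsk, Ctss, Ctsc and Ctsz were lower in AngII+3W than in AngII (log2 fold changes -2.51, -2.04, -1.37 and -0.86). Ctsb, Ctsd, Ctsh and Ctsl did not pass in AngII (0.45, 0.40, 0.55 and 0.67). No gene of these 6 lists passed against CTRL in AngII+2W or AngII+3W. The lists were described by their counts, and the differences between lists were not tested.

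Shared sequence limits some of the counts. Timp3 shares 1733 exon bases, 36.7% of its longest coding transcript, with Syn3 on the opposite strand, and Timp4 shares 90 with Syn2, while Timp1 shares none with Syn1. Syn3 had between 55 and 127 counts, against at least 7973 counts of Timp3 in every library. Syn2 had between 80 and 323 counts, against between 658 and 1068 of Timp4. For Mmp3, 412 bases (22.9%) of the transcript matched other genes at 90% identity or more, and for Mmp14 183 bases (5.65%) did, with 257 genes matching over all its transcripts. Transcripts of Mmp12 other than the longest matched those of 124 genes. Mmp12 shares 157 exon bases with Mmp1b, which had no counts. Mmp2, Mmp9, Mmp13, Timp1, Timp2 and Timp4 had no match of at least 100 bases. The strand setting of the quantification is not given in the sources used here.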

How the data were processed

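Per the labels and the study's methods, a part of each aorta was frozen, tissue of 2 mice was pooled per library, ribosomal RNA was depleted with a KAPA RNA HyperPrep kit with RiboErase, and the libraries were sequenced on 1 NovaSeq lane. Reads were quantified with Salmon against Ensembl GRCm38 transcripts and imported with tximeta. The deposited values are expected counts per gene, given by the authors as whole numbers without normalization. P-values measure the spread between libraries of 2 pooled mice each.

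Genes were filtered with filterByExpr in edgeR 4.0.16 (R 4.3.3) and scaled by TMM. All 8 libraries were fitted with 1 coefficient per group (4 residual degrees of freedom, common biological coefficient of variation 0.202) and 5 comparisons were tested by quasi-likelihood at an FDR of 0.05 over 17182 genes. Standard errors are the log2 fold change divided by the square root of F. CPM used TMM-scaled library sizes, and correlations used log2 CPM with a prior count of 2. Levels between genes were compared per kilobase of the longest coding transcript in GENCODE M21, and shared sequence was searched with BLAST 2.17.0. The fits were tested on simulated counts that gave every gene the same spread. Such counts do not show how the calls behave where libraries of a group differ as they do here. The members and gene lists were chosen with earlier results of these data known. The text names all members, genes of the other protease lists with a call or otherwise the up to 4 most abundant without one, and for each member the 3 genes with the highest Pearson correlation. Some genes that this rule takes are not reported here. Alternatives were DESeq2 1.42.0 and its size factors, library totals, no filter beyond 1 count, the likelihood ratio test, the newer quasi-likelihood fit, limma-voom (limma 3.58.1), only the 2 groups compared, a replicate block, and leaving out each library. Where 1 library was left in a group, it was assumed to vary like the other groups.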

Additional observations from a re-analysis of the deposited data

Results flagged for a closer look

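For 2 members the level differed between the end of the infusion and 3 weeks later, by the direct test of AngII+3W against AngII (edgeR quasi-likelihood test, Benjamini-Hochberg adjustment). The AngII+3W mice were also older at sacrifice, and age and time after the infusion cannot be told apart here. The difference for Timp1 was -3.73 on the log2 scale (SE 0.48, FDR = 0.0221), and both AngII+3W libraries (1.34 and 3.33 CPM) were below both AngII libraries (20.8 and 41.4 CPM). The difference for Mmp14 was -2.25 on the log2 scale (SE 0.40, FDR = 0.0436), with 25.05 and 41.9 CPM against 96.4 and 222 CPM. With only the 2 groups compared neither gene passed in edgeR (FDR = 0.129 for Timp1 and 0.184 for Mmp14). Single libraries were not tested for standing apart from their group, since each group has 2.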

How the results depend on the processing

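The number of members called stayed at 0 in AngII+2W and AngII+3W against CTRL under every alternative. In AngII against CTRL it was 3 or 4 under all alternatives that kept the 8 libraries or compared only the 2 groups. In AngII+3W against AngII (2 members) it was 1 with library totals, 5 with DESeq2 and 0 with only the 2 groups compared. In AngII+2W against AngII (0 members) it was 1 with every gene kept, 2 with DESeq2, 3 with the likelihood ratio test and 2 with only the 2 groups compared. When 1 library was left out, members called ranged from 0 to 3 in AngII against CTRL, 0 to 4 in AngII+3W against AngII and 0 to 1 in AngII+2W against AngII, and genes called from 0 to 1504, from 3 to 1005 and from 0 to 262, and, against CTRL, from 0 to 275 in AngII+2W (0 with all libraries) and from 0 to 463 in AngII+3W. The cause was not tested.

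Genes called in AngII against CTRL (877) were 1588 with DESeq2 and 1711 with the likelihood ratio test. In AngII+2W against CTRL (0) they were 373, 420 and, with every gene kept, 5. In AngII+3W against CTRL (49) they were 585 with DESeq2, 556 with the likelihood ratio test, 200 with every gene kept, 1 with library totals and 0 with only the 2 groups compared. In AngII+2W against AngII (28) they were 685, 766, 242, 18 with library totals, 15 with limma-voom and 884 with only the 2 groups compared. In AngII+3W against AngII (276) they were 968, 1068, 522, 179 with library totals and 0 with only the 2 groups compared.

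The replicate numbers were not taken to pair the samples, since not every pair of groups correlated. The correlation of the replicate differences between groups ranged from -0.04 to 0.25 over 17182 genes and was over 0.1 in 3 of 6 pairs of groups. With the replicate block 3 members were called in AngII against CTRL and 1 in AngII+3W against AngII, where Mmp14 was at FDR = 0.0507 in edgeR, and genes called in AngII+3W against CTRL were 4.

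For single members, 25 of 847 estimates changed sign, each for a member without a call in that comparison. With all libraries kept these were Mmp9 in AngII+2W against AngII (-0.0027 with library totals), Mmp12 in the same comparison (0.0030 with limma-voom) and Timp3 in AngII+3W against AngII (0.0086 with the replicate block). When 1 library was left out, the log2 fold changes ranged as follows. In AngII against CTRL, Mmp9 ranged from -1.25 to 0.33 and Mmp12 from -0.081 to 0.55. In AngII+2W against CTRL, Mmp9 ranged from -0.47 to 0.097 and Mmp12 from -0.081 to 0.55. In AngII+3W against CTRL, Mmp2 ranged from -0.49 to 0.86, Mmp3 from -1.11 to 1.59, Mmp13 from -0.023 to 1.39, Mmp14 from -0.64 to 0.15 and Timp1 from -0.97 to 0.39. In AngII+2W against AngII, Mmp3 ranged from -1.56 to 0.048, Mmp9 from -0.56 to 1.04, Mmp12 from -0.26 to 0.28, Mmp13 from -3.87 to 0.036 and Timp4 from -0.17 to 0.27. In AngII+3W against AngII, Mmp9 ranged from -1.18 to 0.42, Mmp12 from -0.085 to 0.47, Timp3 from -0.21 to 0.17 and Timp4 from -0.093 to 0.22. The counts of Mmp13, at most 13 outside 1 AngII library, limit the precision of its fold changes.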
